A study of Danio rerio with 21 samples.

Results

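GABA is the main inhibitory transmitter of the vertebrate brain, and 33 genes of its synthesis, transport, receptors and cell lineage were followed here through telencephalons of adult zebrafish. They were chosen by name, and 32 of the 33 names were found in the counts, on 33 of 32057 gene IDs, while gabra2b was not found. For gad1, dlx2 and lhx6 the sources used here gave 2 IDs under the same symbol without telling the copies apart, so these are named by symbol and ID, and for lhx6 only 1 of the 2 IDs is the listed gene. The fish were wild-type AB zebrafish, unexposed or kept for 36 days under external gamma radiation from a 137Cs source, and RNA of the telencephalon was sequenced as 21 libraries, each from a pool of dissected telencephalons, with the sexes balanced within a condition. Batch 1 held 3 libraries of its own unexposed controls, 3 at 0.5 mGy/h and 3 at 5 mGy/h. Batch 2 held 6 libraries of its own unexposed controls and 6 at 0.05 mGy/h. Comparisons were made within a batch, and the controls of both batches were compared with each other.

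Neurons that release GABA make it from glutamate by decarboxylation, load it into vesicles with a proton-driven transporter, take it back up with sodium-driven transporters and break it down in mitochondria with a transaminase. GABA acts on GABA-A receptors, chloride channels built from several kinds of subunit, and on GABA-B receptors, which signal through G proteins. In the vertebrate telencephalon most GABA neurons arise in the subpallium, where Dlx and Lhx6 transcription factors act in their specification and migration.

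Reads counted on genes ranged from 19028089 to 71565955 per library, and levels are given as CPM, counts scaled to a common library total, after TMM scaling over all 21 libraries. A count of 3, used as a floor, corresponded to between 0.0396 and 0.161 CPM, which covers counting error only. Of 7 telencephalon markers 0 were at or under this floor in all libraries of any group, though foxg1b was at it in control replicate 5 of batch 2 (0.0839 CPM). A pair of libraries stood apart: 5 mGy/h replicate 1 correlated with its group mates at 0.89 and 0.909 (Pearson's r of log2 CPM over 17430 genes, against 0.986 between those mates), and control replicate 6 of batch 2 at 0.79 to 0.811. In the latter, 17.3% of reads lay outside annotated genes, against 23.5% to 25.1% in the other controls of batch 2. Values are given with and without them below. Summed CPM of 15 pineal markers also varied, from 17.1 to 1349.5 in the controls of batch 1, 13.9 to 939 at 0.5 mGy/h and 626 to 1214 at 5 mGy/h.

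No gene of the list passed the thresholds (false discovery rate, FDR, under 0.05 by Benjamini-Hochberg adjustment over all genes tested, and a fold change of at least 1.5) at any dose rate with all libraries. The edgeR quasi-likelihood test could be run on 31 of the 33 IDs in each comparison, and 0 were called at 0.05, 0.5 and 5 mGy/h, where the percentage of all genes called was 0.00514%, 0.00469% and 0.00469%. DESeq2 also called 0 at each dose rate. At an unadjusted p under 0.05 there were 0 IDs for 0.05 mGy/h (4.26% of all genes), 0 for 0.5 mGy/h (2.37%) and 4 for 5 mGy/h (5.76%), namely gabrb4, gabbr1b, gabra3 and gabrd. In bulk tissue, fewer cells of a type and less RNA per cell cannot be told apart. The p-values measure only the spread between these pooled samples, which may in part be technical.

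None of the 3 IDs of GABA synthesis was called at any dose rate with all libraries, and the spread was widest for 1 copy of gad1. The enzyme glutamate decarboxylase is encoded by gad1 and gad2. gad1 (ENSDARG00000027419) was at 792, 795 and 789.5 CPM in the controls of batch 1, 862, 749 and 849.8 CPM at 0.5 mGy/h and 836, 802 and 723 CPM at 5 mGy/h. In the other batch it was between 687 and 895 CPM in controls (median 811) and between 701 and 881 CPM at 0.05 mGy/h (median 829.7). All groups overlapped, and its log2 fold changes were 0.012 ± 0.0888 (SE) for the 0.05 mGy/h libraries, 0.0526 ± 0.0763 for those of 0.5 mGy/h and -0.00106 ± 0.0763 for those of 5 mGy/h.

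The other copy, gad1 (ENSDARG00000093411), was at 7.02, 5.31 and 5.59 CPM in the controls of batch 1 and 7.78, 6.93 and 5.35 CPM at 0.5 mGy/h, but at 0.191, 13.98 and 15.9 CPM at 5 mGy/h. Replicate 1 at 5 mGy/h thus lay below and the other two libraries above every other library of batch 1. Its fold change at 5 mGy/h, 0.76 ± 1.01 on the log2 scale, was within that spread (edgeR FDR = 0.994). In batch 2 the controls were at lowest 0.557, median 19.2, highest 21.9 CPM, the lowest being replicate 6, and those at 0.05 mGy/h at lowest 18.2, median 23.01, highest 24.6 CPM. Without replicate 6 the other 5 controls began at 16.4 CPM and overlapped with the irradiated libraries.

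For gad2, the controls of batch 1 held 851, 809 and 835 CPM, those at 0.5 mGy/h 957, 839 and 959 CPM and those at 5 mGy/h 710.1, 1072 and 844 CPM. The controls of batch 2 were at lowest 895, median 1181, highest 1279 CPM and the libraries at 0.05 mGy/h at lowest 1103, median 1249.7, highest 1432 CPM. Groups overlapped in each comparison with controls, with log2 fold changes of 0.14 ± 0.11 (SE) for the 0.05 mGy/h libraries, 0.15 ± 0.13 for those of 0.5 mGy/h and 0.0822 ± 0.13 for those of 5 mGy/h. These tests took the libraries as unpaired. In batch 2 each library at 0.05 mGy/h was above the control of the same replicate number, but a fit with the numbers as pairs did not call gad2. How many of all genes did so was not counted. The vesicular transporter slc32a1, which loads GABA and glycine, was at 239, 237 and 231 CPM in the controls of batch 1, 233, 225 and 252 CPM at 0.5 mGy/h and 271, 255 and 234 CPM at 5 mGy/h. Across batch 2 it was at lowest 170.0, median 203, highest 418 CPM in controls and lowest 159.7, median 202, highest 233 CPM at 0.05 mGy/h. The highest of these was again control replicate 6, above all the other libraries.

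**Figure D1:**
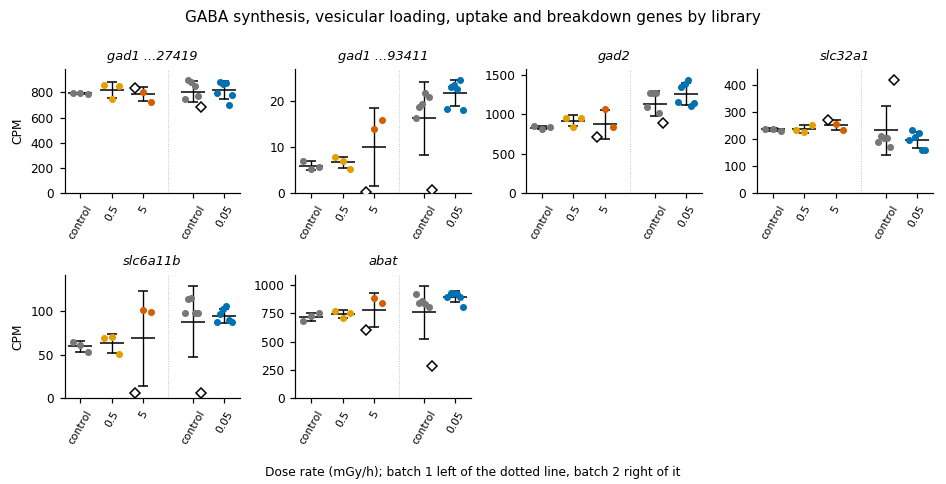
Levels of 6 gene IDs of GABA synthesis, vesicular loading, uptake and breakdown (y axes, CPM, linear from 0) in each of 21 libraries, by dose rate and batch (x axes). Points are libraries, bars give the group mean ± SD, and open diamonds mark 5 mGy/h replicate 1 and control replicate 6 of batch 2, which lie lowest in their groups for gad1 ENSDARG00000093411, slc6a11b and abat.

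slc6a11b (GAT3, an uptake transporter found mostly on glia in mammals) was low in both deviating libraries. It was at 64.4, 61.2 and 52.5 CPM in the controls of batch 1, 68.8, 69.6 and 50.6 CPM at 0.5 mGy/h and 6.301, 101 and 97.98 CPM at 5 mGy/h, and at 6.13 CPM in control replicate 6 of batch 2 against 86.8 to 114 CPM in the rest of that batch. The transaminase abat was at 686 to 774 CPM in the controls and at 0.5 mGy/h in batch 1, with 605, 883 and 845 CPM at 5 mGy/h, and at 285 CPM in control replicate 6 of batch 2 against 807 to 934 CPM in the others. slc6a11a was at or near the floor in every library (0 to 0.108 CPM) and was not tested.

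Several GABA-A receptor subunits were low in batch 1, in the deviating libraries, or in both. Among the alpha subunits, which with beta subunits form the GABA binding site, gabra5 (in mammals largely extrasynaptic) was at 36.2 to 52.2 CPM in batch 1 and 29.7 to 54.5 CPM at 0.05 mGy/h. Its level in the controls of batch 2 was lowest 11.1, median 39.95, highest 47.5 CPM, the lowest in replicate 6. gabra2a was at 20.3 to 26.4 CPM in the controls and at 0.5 mGy/h and at 8.57, 33.8 and 34.3 CPM at 5 mGy/h. In gabra4 the controls of batch 1 were at 4.22, 4.66 and 4.38 CPM, those at 0.5 mGy/h at 7.71, 5.03 and 4.098 CPM and those at 5 mGy/h at 0.743, 11.3 and 13.6 CPM. For both genes 5 mGy/h replicate 1 was the lowest library of batch 1 and replicates 2 and 3 were the highest. In batch 2, control replicate 6 held 3.42 CPM of gabra2a and 1.11 CPM of gabra4, where the libraries at 0.05 mGy/h held 35.5 to 41.2 and 12.5 to 17.96 CPM.

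gabra3 was near 0 in batch 1, with 0.189, 0.263 and 0.283 CPM in controls, 0.149, 0.387 and 0.412 CPM at 0.5 mGy/h and 0.1697, 0.581 and 2.603 CPM at 5 mGy/h. At 5 mGy/h it had a log2 fold change of 2.19 ± 0.88 (SE, edgeR FDR = 0.833), which rested on replicates 2 and 3 and came with overlapping groups. The controls of batch 2 were at lowest 0.318, median 11.2, highest 12.8 CPM and the libraries at 0.05 mGy/h at lowest 9.62, median 13.6, highest 14.5 CPM. gabra6b, whose mammalian counterpart is typical of cerebellar granule cells, was at 0.724, 0.648 and 0.895 CPM in the controls of batch 1, 1.23, 0.686 and 1.12 CPM at 0.5 mGy/h and 0.255, 1.02 and 1.41 CPM at 5 mGy/h. Across batch 2 it was at lowest 0.239, median 3.29, highest 4.04 CPM in controls and lowest 2.21, median 3.73, highest 5.16 CPM at 0.05 mGy/h. gabra6a was near the floor in every library (0 to 0.208 CPM) and was not tested.

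Of the beta subunits, gabrb2a kept to 225 to 318 CPM and gabrb1 to 31.03 to 52.1 CPM over all 21 libraries. The duplicate gabrb2b was at 0.739, 1.05 and 0.581 CPM in the controls of batch 1, 0.763, 0.792 and 0.674 CPM at 0.5 mGy/h and 0.424, 1.59 and 5.58 CPM at 5 mGy/h. In batch 2 its controls were at lowest 0.995, median 24.9, highest 26.9 CPM and the irradiated libraries at lowest 22.8, median 27.4, highest 33.1 CPM. No library of batch 1 reached the level of any library of batch 2 other than control replicate 6, which lay among the controls of batch 1.

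gabrb4 had the lowest p of the list at 5 mGy/h. The controls of batch 1 were at 1.71, 2.13 and 2.26 CPM, the libraries at 0.5 mGy/h at 2.32, 2.39 and 2.38 CPM and those at 5 mGy/h at 2.08, 4.795 and 8.42 CPM. Replicate 1 at 5 mGy/h lay among the controls and the other two above all of them, with a log2 fold change of 1.33 ± 0.43 (SE, edgeR FDR = 0.807). At 0.5 mGy/h every library lay above every control, by a log2 fold change of 0.22 ± 0.43 (SE, edgeR FDR = 0.9999). Such a separation at 0.5 mGy/h was found for 2 tested IDs of the list above the controls (4.3% of all genes) and 1 below (6.83% of all genes). The controls of batch 2 were at lowest 2.47, median 21.1, highest 23.9 CPM and the libraries at 0.05 mGy/h at lowest 18.5, median 20.1, highest 23.2 CPM.

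The gamma subunits anchor receptors at synapses, while delta-containing receptors act mostly outside them. gabrg1 was at 7.94, 7.49 and 8.195 CPM in the controls of batch 1, 11.9, 8.57 and 7.41 CPM at 0.5 mGy/h and 3.86, 16.4 and 16.6 CPM at 5 mGy/h, and gabrg3 at 0.378, 0.587 and 0.345, 0.531, 0.686 and 0.299, and 0.106, 1.97 and 3.65 CPM in the same order. Both had replicate 1 at 5 mGy/h as the lowest and replicates 2 and 3 as the highest libraries of batch 1. In batch 2 gabrg1 was at lowest 4.22, median 20.5, highest 22.7 CPM in controls and lowest 21.3, median 22.9, highest 26.1 CPM at 0.05 mGy/h, and gabrg3 at lowest 0.358, median 6.596, highest 7.59 CPM and lowest 6.01, median 6.88, highest 8.12 CPM. The lowest of both was control replicate 6.

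The delta subunit gabrd was at 219.9, 211 and 202 CPM in the controls of batch 1, 216, 200.2 and 196 CPM at 0.5 mGy/h and 122, 168 and 199 CPM at 5 mGy/h. Every library at 5 mGy/h was below every control, with a log2 fold change of -0.36 ± 0.16 (SE, edgeR FDR = 0.855). It was the 1 tested ID of the list that lay wholly below the controls at 5 mGy/h, where 5.48% of all genes did so, and 1 lay wholly above (3.74% of all genes). The controls of batch 2 were at lowest 30.2, median 179, highest 190.2 CPM, the lowest in replicate 6, and the libraries at 0.05 mGy/h at lowest 157, median 179, highest 193 CPM. For the zeta subunit gabrz the controls of batch 1 were at 7.204, 7.53 and 12.3 CPM, the libraries at 0.5 mGy/h at 13.6, 13.3 and 12.8 CPM and those at 5 mGy/h at 9.55, 16.02 and 13.1 CPM. All libraries at 0.5 mGy/h were above all controls, with a log2 fold change of 0.55 ± 0.25 (SE, edgeR FDR = 0.9999), the lowest p of the list at that dose rate. In batch 2 gabrz ranged from 3.18 to 41.5 CPM in controls and from 19.4 to 50.6 CPM at 0.05 mGy/h.

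The rho subunits are best known from the retina. gabrr1 was at 0.897, 0.527 and 0.801 CPM in the controls of batch 1, 0.282, 0.651 and 0.505 CPM at 0.5 mGy/h and 0.806, 0.594 and 0.525 CPM at 5 mGy/h, and at 0.1797 to 0.911 CPM in batch 2. It had a log2 fold change of -0.63 ± 0.36 (SE, edgeR FDR = 0.9999) at 0.5 mGy/h, with overlapping groups. gabrr2a was at 5.54 to 6.54 CPM in the controls and at 0.5 mGy/h in batch 1, at 3.22 to 6.25 CPM at 5 mGy/h, and at 1.67 to 6.93 CPM in batch 2, with the lowest value in control replicate 6.

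**Figure D2:**
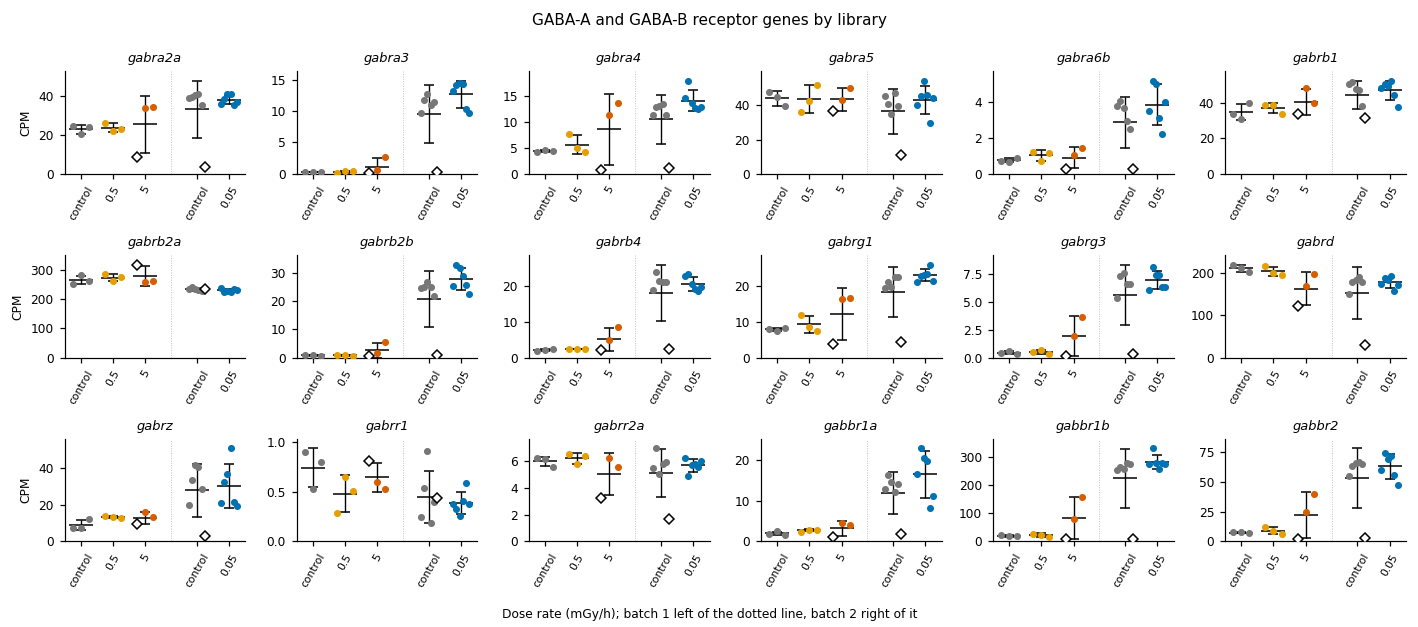
Levels of 18 GABA-A and GABA-B receptor genes (y axes, CPM, linear from 0) in 21 libraries by dose rate and batch (x axes), with points for libraries, bars for the group mean ± SD and open diamonds for 5 mGy/h replicate 1 and control replicate 6 of batch 2. gabra3, gabrb2b, gabrb4, gabrg3 and the GABA-B genes are low in batch 1 and in both diamonds.

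The GABA-B receptor is a pair of a gabbr1 subunit, which binds GABA, and a gabbr2 subunit, which couples to G proteins, and all 3 of its genes on the list were low in the controls of batch 1 and in both deviating libraries. gabbr1b was at 21.4, 17.4 and 17.7 CPM in the controls of batch 1, 27.98, 23.8 and 16.6 CPM at 0.5 mGy/h and 8.34, 81.7 and 160.4 CPM at 5 mGy/h. At 5 mGy/h, 1 library was below and 2 were above all the others of batch 1, giving a log2 fold change of 2.16 ± 0.81 (SE, edgeR FDR = 0.811). Its range in batch 2 was lowest 9.63, median 264, highest 281 CPM in controls and lowest 258, median 278, highest 332 CPM at 0.05 mGy/h. gabbr2 was at 7.597, 7.66 and 6.88 CPM in the controls of batch 1, 11.7, 8.85 and 5.93 CPM at 0.5 mGy/h and 1.91, 24.3 and 40.05 CPM at 5 mGy/h. In the other batch it was at lowest 2.71, median 64.2, highest 66.6 CPM in controls and lowest 47.4, median 64.4, highest 74.2 CPM at 0.05 mGy/h. gabbr1a was at 1.82, 2.43 and 1.57 CPM, 2.41, 2.78 and 2.9 CPM and 1.12, 4.56 and 3.904 CPM in the groups of batch 1, and at lowest 1.79, median 13.5, highest 16.2 CPM in the controls of batch 2 and lowest 8.12, median 18.2, highest 22.9 CPM at 0.05 mGy/h. In all 3 genes the lowest control of batch 2 was replicate 6.

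Of the 7 transcription factor IDs 0 were called between the controls of the batches, and control replicate 6 of batch 2 was the highest of its group for 5 of the 7 IDs, those of the dlx genes. dlx1a was at 49.8, 40.8 and 49.8 CPM in the controls of batch 1, 40.6, 40.6 and 38.1 CPM at 0.5 mGy/h and 43.6, 53.1 and 46.6 CPM at 5 mGy/h. It lay below every control at 0.5 mGy/h, with a log2 fold change of -0.23 ± 0.11 (SE, edgeR FDR = 0.9999). In batch 2 it was at lowest 28.8, median 32.5, highest 68.00 CPM in controls and lowest 26.6, median 32.4, highest 39.9 CPM at 0.05 mGy/h. All 7 IDs had a negative log2 fold change at 0.5 mGy/h, from -0.48 to -0.00506 (median -0.23), 0 of them at a p under 0.05. Over the alternative fits dlx6a ran from -0.0871 to 0.0519, while dlx1a, dlx5a and dlx2 (ENSDARG00000017174) stayed negative. The share of all genes with a negative change is not given here, so the shared sign is a description only.

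dlx2 (ENSDARG00000017174) was at 1.51, 1.904 and 1.93 CPM in the controls of batch 1, 1.44, 1.601 and 1.29 CPM at 0.5 mGy/h and 2.23, 3.59 and 2.06 CPM at 5 mGy/h. It was the ID with every library at 5 mGy/h above every control, with a log2 fold change of 0.57 ± 0.25 (SE, edgeR FDR = 0.863), and it had the lowest p of the list between 5 and 0.5 mGy/h, with a log2 fold change of 0.87 ± 0.25 (SE, edgeR FDR = 0.919). Across batch 2 it ranged from 1.17 to 3.54 CPM in controls and 1.17 to 2.55 CPM at 0.05 mGy/h. The other dlx2 ID (ENSDARG00000079964) was at 27.2 to 41.3 CPM in batch 1, 23.9 to 48.1 CPM in the controls of batch 2 and 22.6 to 31.8 CPM at 0.05 mGy/h.

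The lowest p of the list at 0.05 mGy/h were those of the neighbouring genes dlx6a and dlx5a and of gad2. dlx6a was at 34.7, 32.1 and 36.8 CPM in the controls of batch 1, 33.2, 31.6 and 38.3 CPM at 0.5 mGy/h, 46.7, 33.4 and 31.2 CPM at 5 mGy/h, lowest 28.8, median 33.4, highest 79.8 CPM in the controls of batch 2 and lowest 27.2, median 29.1, highest 31.9 CPM at 0.05 mGy/h. Its log2 fold change at 0.05 mGy/h was -0.48 ± 0.23 (SE, edgeR FDR = 0.7503), and -0.16 without control replicate 6. dlx5a was at 48.4, 50.3 and 51.9 CPM in the controls of batch 1, 44.1, 46.7 and 49.1 CPM at 0.5 mGy/h, 60.2, 48.2 and 43.7 CPM at 5 mGy/h, lowest 41.05, median 48.1, highest 95.5 CPM in the controls of batch 2 and lowest 38.4, median 42.3, highest 48.4 CPM at 0.05 mGy/h. Its log2 fold change at 0.05 mGy/h, -0.39 ± 0.19 (SE), became -0.16 without that library. lhx6 (ENSDARG00000006896) was at 14.8 to 34.98 CPM. lhx6 (ENSDARG00000052165) was at 0 to 0.882 CPM, and its 0 counts in control replicate 6 allow a level of up to 0.119 CPM.

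**Figure D3:**
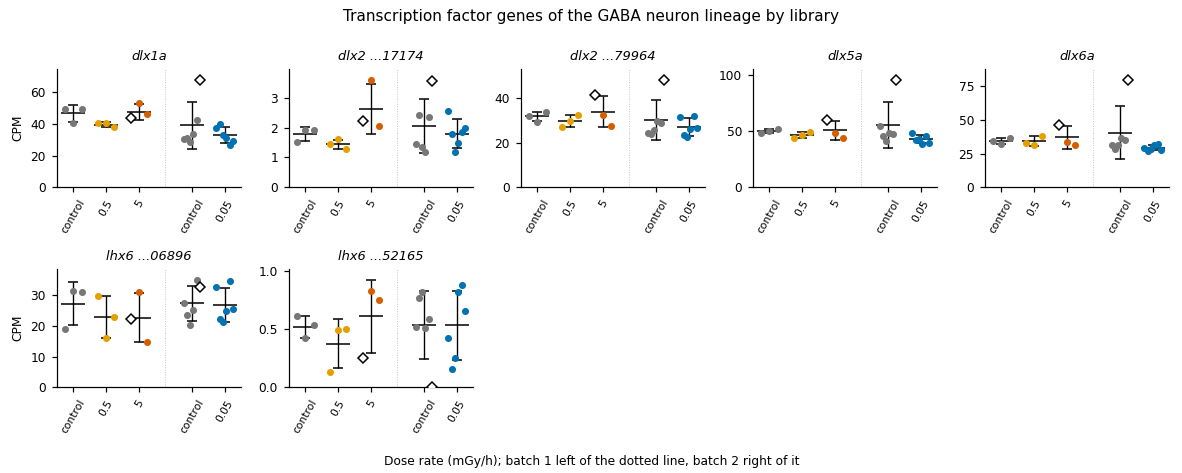
Levels of 7 gene IDs of lineage transcription factors (y axes, CPM, linear from 0) in 21 libraries by dose rate and batch (x axes), drawn as for the other genes, with open diamonds for 5 mGy/h replicate 1 and control replicate 6 of batch 2. Control replicate 6 is the highest of the controls of batch 2 for all 5 dlx IDs, such as dlx5a at 95.5 CPM.

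Estimates over 1 on the log2 scale were found for 6 receptor subunits at 5 mGy/h, and none was called with all libraries. At 0.05 mGy/h 22 of the 31 tested IDs had a positive log2 fold change (median 0.14, against -0.0098 for all genes tested), and 0 lay wholly above or below the controls (0.293% and 0.637% of all genes). Without control replicate 6 of batch 2 these numbers were 17 and 0.0075, with 0 called. At 0.5 mGy/h 20 were positive (median 0.053, all genes 0.011). At 5 mGy/h 25 were positive (median 0.21, all genes 0.028), with the highest values for gabra3, gabbr1b, gabrg3, gabrb2b, gabbr2 and gabrb4, between 1.33 and 2.19. The comparisons at 0.5 and 5 mGy/h share their 3 control libraries. Between 5 and 0.5 mGy/h, 0 IDs were called (0.00469% of all genes) and 5 had a p under 0.05 (5.24% of all genes), which were dlx2 (ENSDARG00000017174), gabrb4, dlx1a, gabbr1b and gabrb2b. dlx1a and dlx2 (ENSDARG00000017174) lay wholly above 0.5 mGy/h (2 IDs, 4.17% of all genes) and 0 lay wholly below (5.21%). Whether changes in batch 1 and in batch 2 were unequal was asked with interaction terms in a model of the 21 libraries, and 0 of 31 IDs were called in either (edgeR and DESeq2, 0% of all genes by edgeR), with 0 at a p under 0.05 (2.03% and 4.42% of all genes).

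**Figure D4:**
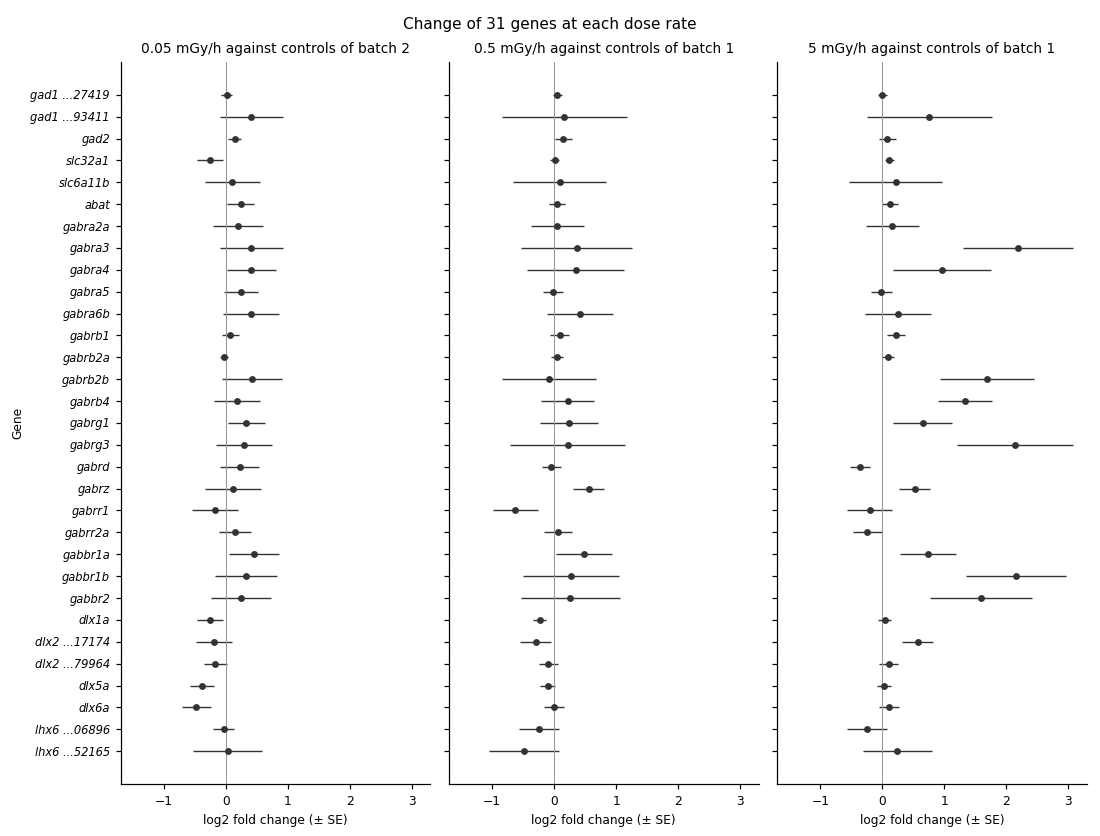
log2 fold change (x axes) of 31 gene IDs (y axis) at each dose rate against the controls of its batch, with points for the edgeR estimate and bars for ± SE. At 0.05 and 0.5 mGy/h the estimates lie between -0.63 and 0.55, and at 5 mGy/h gabra3, gabrb2b, gabrb4, gabrg3, gabbr1b and gabbr2 lie above 1, with wide bars.

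The count at 5 mGy/h depended on a single library. Without replicate 1 at 5 mGy/h, leaving 2 libraries at that dose rate, 11 IDs of the list were called and all 11 were higher than in controls, where 6.34% of all genes were called, 6.11% higher and 0.231% lower. They were gad1 (ENSDARG00000093411), slc6a11b, gabra3, gabra4, gabrb2b, gabrb4, gabrg1, gabrg3, gabbr1a, gabbr1b and gabbr2. The library left out was singled out from these same data, and all 11 were among the 13 IDs below -1 in it relative to its mates (log2 scale, below). Leaving it out thus raised their means, and these FDR are no independent support for a rise. In this fit gabrg3 was higher by 2.69 ± 0.43 (SE, edgeR FDR = 0.00997) on the log2 scale, gabbr1b by 2.69 ± 0.30 (SE, edgeR FDR = 0.00476) and gabra3 by 2.68 ± 0.66 (SE, edgeR FDR = 0.0475). The 2 libraries left were at 81.7 and 160.4 CPM for gabbr1b and 0.581 and 2.603 CPM for gabra3. gabbr2 was higher by 2.13 ± 0.29 (SE, edgeR FDR = 0.006498) and gad1 (ENSDARG00000093411) by 1.33 ± 0.19 (SE, edgeR FDR = 0.00674), while the uptake gene slc6a11b was higher by 0.75 ± 0.14 (SE, edgeR FDR = 0.0202). gad2, gad1 (ENSDARG00000027419), slc32a1 and all 7 transcription factor IDs were not called, with slc32a1 at 0.0527 (edgeR FDR = 0.667).

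Between 5 and 0.5 mGy/h, without the same library, 9 IDs of the list were called, all higher at 5 mGy/h (5.47% of all genes were called, 5.23% higher and 0.235% lower). They were those named above other than gabra3 and gabbr1a, and both comparisons use the same 2 libraries at 5 mGy/h. With this library kept, and with each of the other libraries of batch 1 left out in turn, the count was 0 at 5 mGy/h. Among the 31 tested IDs replicate 1 at 5 mGy/h was the lowest of the 9 libraries of batch 1 for 15 (28.5% of all genes), replicates 2 and 3 were the highest of the 9 for 15 (15% of all genes), and both held for 11 (11.8% of all genes).

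The IDs of the list that were low in 5 mGy/h replicate 1 were also low in control replicate 6 of batch 2, as were most of the genes low in the former over the whole table. Relative to the mean of its group mates, on a log2 scale of CPM + 0.5, 5 mGy/h replicate 1 was below -1 for 13 of the 31 IDs (41.9%, against 15.7% of 19325 genes) and control replicate 6 of batch 2 for 19 (61.3%, against 25.2%). The 13 were all among the 19, which is 100% of the first list and 68.4% of the second, and over all genes the shared part was 92.1% and 57.6%. They were gad1 (ENSDARG00000093411), slc6a11b, gabra2a, gabra3, gabra4, gabra6b, gabrb2b, gabrb4, gabrg1, gabrg3, gabbr1a, gabbr1b and gabbr2. Another 6 IDs were below -1 in control replicate 6 only, namely abat, gabra5, gabrd, gabrz, gabrr2a and lhx6 (ENSDARG00000052165). In 5 mGy/h replicate 1 these 6 were between -0.78 and -0.34, so under the mean of its mates as well. The lowest ratios were -4.48 for gad1 (ENSDARG00000093411) in 5 mGy/h replicate 1 and -4.73 for gabbr1b in control replicate 6. Genes that lie next to each other in the genome did not always share this. gabra2a and gabrg1 were low in both libraries, at -1.93 and -1.96 in 5 mGy/h replicate 1, but gabrb1, which adjoins gabrg1, was at -0.39. The neighbours gabrg3 and gabra5 were likewise unequal, at -2.45 and -0.34, while the neighbours gabra3 and gabrb4 were at -1.64 and -1.46.

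Every marker list, those of neurons and telencephalon included, summed to a level outside the range of its group mates in both libraries. In several lists a single gene made up most of the sum, and sums without that gene are not given here. The 10 neuron markers summed to 10215 CPM in control replicate 6 (7076 to 7833 CPM in its mates) and the 7 telencephalon markers to 712 CPM (456 to 579 CPM). Both lists went both ways. Of the neuron genes 4 were above all mates and 6 below, such as elavl3 at 89.8 CPM. Of the telencephalon genes 4 were above and 2 below. In control replicate 6 the summed level of 10 preoptic and hypothalamic markers was 1337 CPM (60.8 to 169 CPM in its 5 group mates), of which oxt made up 1273 CPM. Of the 10 genes 6 were above all mates and sim1a was below them, with hcrt, pmch and agrp at or under the floor. The 6 included pmch, at 0.0398 CPM against 0 CPM in each mate, which lies within the floor. For 12 cerebellar markers it was 4698 CPM (1701 to 1979.8 CPM), of which aldoc (ENSDARG00000019702) made up 4009.6 CPM, with 1 atoh1 ID, atoh1c and both en2 IDs at or under the floor. Of the other lists, 15 pineal markers were at 1383 CPM (34.99 to 349 CPM), with rbp4l at 982 CPM. Of these 15 genes, 12 were above all mates and 0 below, with guca1b at or under the floor and crx so in all mates as well. The 12 included crx, at 0.0398 CPM against 0.0346 CPM in its highest mate, which lies within the floor. The 6 microglial markers were at 824 CPM (222 to 310.3 CPM), with apoeb at 803 CPM and p2ry12 at or under the floor. Among them 2 were above all mates and 3 below. There were 332 CPM of 3 red blood cell markers (64.6 to 127 CPM), 1268 CPM of 8 oligodendrocyte markers (676 to 843 CPM) and 8837 CPM of 12 radial glia markers (4516 to 5442 CPM). Sums below those of all mates were found for 7 habenula markers at 53.5 CPM (71.9 to 81.7 CPM) and 7 olfactory bulb markers at 437 CPM (506 to 538 CPM). Of the habenula genes 4 were above all mates and 2 below, with kiss1 and pou4f1 at or under the floor. Of the olfactory bulb genes 1 was above and 4 below. The 14 pallial glutamatergic markers summed to 2124 CPM (1802 to 2037 CPM) but went both ways, with 5 above all mates and 6 below. Below all mates were slc17a6a at 17.7 CPM and slc17a7a at 15.3 CPM, while neurod1, at 355 CPM, was above them.

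In 5 mGy/h replicate 1 the sums were 165 CPM for the preoptic list (185 and 343 CPM in its mates), 2365 CPM for the cerebellar list (2015 and 2277 CPM), 626 CPM for the pineal list (865 and 1214 CPM) and 215 CPM for the microglial list (177 and 213 CPM). With only 2 mates, a sum can easily lie outside their range. Of the 6 microglial genes 4 were below both mates, such as csf1ra at 2.16 CPM, and apoeb made up 178 CPM. Of the 15 pineal genes 13 were below both mates and 1 above. The sums were 209.8 CPM for the red blood cell list (117 and 126 CPM), 1067 CPM for the oligodendrocyte list (653 and 1037 CPM), 6457 CPM for the radial glia list (5065 and 5453 CPM) and 1662 CPM for the glutamatergic list (1779 and 1878 CPM). Of the 14 glutamatergic genes 8 were above both mates and 6 below. The neuron list was at 8220 CPM (7852 and 7889 CPM) and the telencephalon list at 695 CPM (595 and 605 CPM). Of the 10 neuron genes 5 were above both mates and 4 below, and of the 7 telencephalon genes 3 were above and 2 below. The habenula list was at 39.0 CPM (67.8 and 104.5 CPM), with 0 genes above both mates and 3 below. The olfactory bulb list was at 476 CPM (485 and 509 CPM), with 2 genes above and 5 below. The part of these markers in the levels of the GABA genes was not tested.

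**Figure D5:**
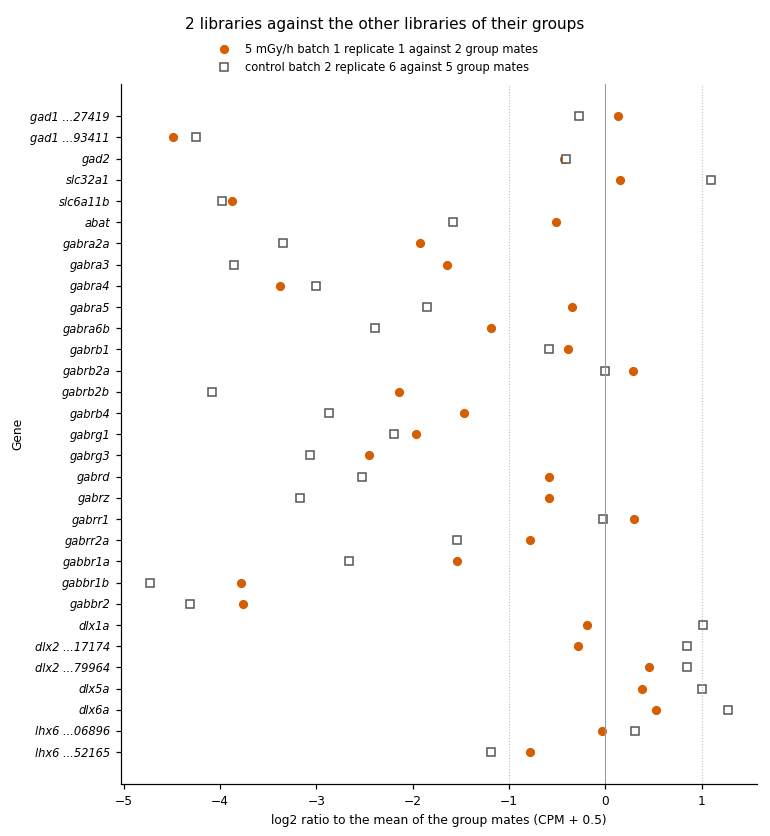
log2 ratio (x axis, CPM + 0.5) of 31 gene IDs (y axis) in 5 mGy/h replicate 1 (filled circles) and control replicate 6 of batch 2 (open squares) to the mean of the other libraries of their group, with dotted lines at -1 and 1. Both libraries lie far below 0 for gabbr1b, gabbr2, slc6a11b and gad1 ENSDARG00000093411, while slc32a1 is at 0.15 and 1.095.

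Of 18 receptor genes tested, 8 were lower in the unexposed fish of batch 1 than in those of batch 2, and 0 of the other genes of the list were called. In the controls of batch 1 against those of batch 2, in the fit of all libraries, 8 of 31 IDs were called (7.95% of all genes), and all 8 were lower in batch 1 (5.35% of all genes, with 2.59% higher). These were gabra3 at -5.27 ± 0.92 on the log2 scale (SE, edgeR FDR = 0.00169), gabrb2b at -4.73, gabrg3 at -3.70, gabbr1b at -3.59, gabrb4 at -3.16, gabbr2 at -2.86, gabbr1a at -2.63 and gabra6b at -1.92. The controls did not overlap for gabra3 and gabrb4 and overlapped for the other 6, where replicate 6 was the lowest control of batch 2. In all, 3 IDs lay wholly lower in batch 1 (gad2, gabra3 and gabrb4, 4.9% of all genes) and 2 wholly higher (gabrb2a and gabrd, 7.47% of all genes), and 13 had a p under 0.05 (22.7% of all genes). gad2 was lower by a log2 difference of -0.47 (edgeR FDR = 0.0297), under the fold threshold. gad1 (ENSDARG00000027419) and slc32a1 differed by -0.0384 ± 0.0925 and 3.99e-04 ± 0.22. The calls of gabra6b and gabbr2 were lost when any 1 of the 3 controls of batch 1 was left out (lowest FDR 0.123 and 0.0954), that of gabbr1b without replicate 2 or 3 and that of gabrg3 without replicate 3. Without both deviating libraries 14 IDs of the list were called, while the calls over all genes also rose, from 1692 to 4210. Batch and whatever else differed between these fish cannot be told apart.

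Beyond the listed genes, 81 other genes of the GABA pathway and its cells were counted, of which 76 were tested in batch 1 and 74 in batch 2. Of these 0 were called at 0.05, 0.5 or 5 mGy/h by edgeR. At a p under 0.05 there were 5 of 74, 2 of 76 and 6 of 76, where 4.26%, 2.37% and 5.76% of all genes were. The lowest p are named here with log2 fold changes. At 0.05 mGy/h they were pvalb7, a parvalbumin, at -0.36 and gsx2, a subpallial patterning factor, at -0.85 (edgeR FDR = 0.7503 for both). At 0.5 mGy/h they were slc38a2, a glutamine carrier, at 0.20 and kcnj6, a potassium channel subunit opened by GABA-B receptors, at -0.45 (edgeR FDR = 0.9999 for both). At 5 mGy/h they were zeb2a, a factor of migrating interneurons, at -0.33 and penka, an enkephalin precursor, at 0.34 (edgeR FDR = 0.807 for both). Without 5 mGy/h replicate 1, 8 of 76 were called at 5 mGy/h, all higher (6.11% of all genes were), among them the transporter slc6a13 at 2.52 and the chloride extruder slc12a5b at 1.76. The others were slc6a6 (ENSDARG00000012534), lhfpl4a, plcl2, nos1 and 2 erbb4 IDs. The library left out was singled out from these same data, and all 8 genes were lower in it than in both mates. For slc6a13 it held 1.27 CPM against 11.6 and 17.4 CPM. Leaving it out raised the means of these genes, so the calls are no independent support for a rise. Between the controls of the batches 7 of 76 were called (7.95% of all genes), all lower in batch 1 (5.35% of all genes), with slc12a5a at -5.78, erbb4 (ENSDARG00000090408) at -4.73, slc6a13 at -3.25, slc12a5b at -3.08, kcnj9 at -2.19, nos1 at -2.08 and tac1 at -1.11.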

How the data were processed

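The authors sequenced stranded mRNA libraries of telencephalon pools and deposited raw counts per gene for each library, made with STAR on GRCz11 (their notes also list DESeq2 1.22.2). The counts of the strand expected for this kit (column 4 of the deposited table) were used. The members and gene lists were chosen with earlier results of these data known. Names were paired with gene IDs through a gene name table (8 IDs), a symbol column of the study (11, names only) and orthologue symbols (14, of which 6 IDs could not be told apart within 3 symbols). Which genes adjoin each other was read from RefSeq's GRCz12tu table. Sequences are not shown, and some genes of this pathway are not reported here.

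Counts were tested in R 4.3.3 with edgeR 4.0.16 (TMM, filterByExpr, quasi-likelihood), 6 against 6 libraries in batch 2, the 3 groups of batch 1 in a shared fit, and all 21 libraries for the interactions and for the controls of the batches. A call needed an FDR under 0.05 over all genes tested and a fold change of at least 1.5. Alternatives were DESeq2 1.42.0, other scaling and filters, unstranded counts, a replicate block, each library left out, and sets of 18 and 19 libraries. The SE of an edgeR log2 fold change was its absolute value divided by the square root of the F statistic of its test. Ratios to group mates used CPM + 0.5. The edgeR fits were tested on simulated data. In batch 2, deviations from the group means of libraries with the same number in the labels correlated at 0.18 to 0.31 in all 6 pairs, so the numbers were taken to pair them. The main test did not use these pairs, and only the replicate block did. Values in every library are given for the synthesis and loading genes, for each ID called or with groups that did not overlap in a comparison with controls, for the 3 lowest p of each such comparison, and for those called without 5 mGy/h replicate 1, a set added after the values were seen. The authors' tables of fold changes were not used.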

Additional observations from a re-analysis of the deposited data

Results flagged for a closer look

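In batch 2, 63 sets of 6 libraries could be examined for a library far from the others (by the share of the whole range taken by the gap to its nearest neighbour), and 23 held one. For independent sets of normal values chance gives about 1 in 20. These sets are genes of the same libraries, so a single library can flag many, and that rate does not apply to the count. Control replicate 6 was that library in 21 of them. It was the lowest for gad1 (ENSDARG00000093411) at 0.557, slc6a11b at 6.13, abat at 285, gabra2a at 3.42, gabra3 at 0.318, gabra4 at 1.11, gabra5 at 11.1, gabrb2b at 0.995, gabrb4 at 2.47, gabrg1 at 4.22, gabrg3 at 0.358, gabrd at 30.2, gabrr2a at 1.67, gabbr1a at 1.79, gabbr1b at 9.63 and gabbr2 at 2.71 CPM (16 IDs). It was the highest for slc32a1 at 418, dlx1a at 68.00, dlx2 (ENSDARG00000079964) at 48.1, dlx5a at 95.5 and dlx6a at 79.8 CPM (5 IDs).

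The remaining sets involved other libraries. abat was lowest at 0.05 mGy/h in replicate 6, at 808 CPM, and gabbr1b highest at 0.05 mGy/h in replicate 2, at 332 CPM. Groups of 3 were not examined, so 5 mGy/h replicate 1 could not appear here. A difference of the change at 0.5 or 5 mGy/h from that at 0.05 mGy/h was called for 0 IDs of the list.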

How the results depend on the processing

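With DESeq2, scaling by RLE, all genes kept or only those reaching 10 counts in each library, unstranded counts, no fold threshold, a single fit of all libraries and 18 libraries (without control replicate 1 and 0.5 mGy/h replicate 1 of batch 1 and control replicate 6 of batch 2, singled out in earlier work on these values), 0 IDs of the list were called at each dose rate. Leaving out each library in turn gave 0 to 11 IDs at 5 mGy/h against controls and 0 to 9 against 0.5 mGy/h, with both maxima without 5 mGy/h replicate 1, and 0 in every case at 0.05 and 0.5 mGy/h and in the interaction tests. A fit of 19 libraries, without both deviating libraries and chosen after seeing the data, gave 11 at 5 mGy/h, 9 against 0.5 mGy/h and 11 for the interaction of 5 with 0.05 mGy/h. Over all genes, where edgeR called 1 at each dose rate, DESeq2 called 13, 12 and 79 at 0.05, 0.5 and 5 mGy/h and 45 between 5 and 0.5 mGy/h, the 18 libraries gave 8, 1 and 43, and the 19 libraries 8, 0 and 1375. The interaction terms, with 0 calls by edgeR, gave 5 and 5 with DESeq2, 6 and 63 with 18 libraries and 1 and 1254 with 19.

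Between the controls of the batches, all genes called went from 1692 to 999 with at least 10 counts, 2638 with 18 libraries and 4210 with 19. Of the list, 5 IDs were called with at least 10 counts in every library and 14 with 19 libraries, and 4 to 11 with each library left out (5 without control replicate 2 of batch 1, 4 without replicate 3 and 11 without control replicate 6 of batch 2). Of 3668 alternative fold changes of the 22 IDs given by library, 0 called values turned sign, 24 lost their call and 65 gained one, and 212 uncalled values turned sign.

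The replicate numbers were taken to pair the libraries of batch 2, which the labels do not state. With the replicate block, 0 IDs of the list and 0 of all genes were called at 0.05, 0.5 and 5 mGy/h and between 5 and 0.5 mGy/h, so the block changed no call of the list there. In batch 1 the numbers were not taken to pair the libraries (correlations from -0.53 to 0.11 over its 3 pairs of groups). The block lies within a batch and was not used between the controls of the batches.

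With 3 libraries a group and 1 of them apart, changes of the size seen for receptor subunits were not called at this spread. Depth limits slc6a11a, gabra6a, gabrr1 and lhx6 (ENSDARG00000052165), which were near or at the floor, and copies of a gene that share reads are uncertain. It also limits the large fold changes of gabra3 and gabrg3, which held 8 to 124 and 5 to 174 counts in batch 1. Levels of different genes were not compared, since transcript lengths were not used here.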

Other observations

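The summed level of the vesicular glutamate transporters, which load the excitatory transmitter and mark glutamatergic neurons, varied more between libraries than that of GABA synthesis and loading. Single genes weigh on both sums. slc17a6a was at 123 to 151 CPM in the controls of batch 1 and 431 to 504 CPM in those of batch 2 other than replicate 6. In the same libraries slc17a6b was at 212 to 253 CPM. Summed over slc17a7a, slc17a7b, slc17a6a and slc17a6b the transporters were at 464 to 483 CPM in the controls of batch 1, 428 to 555 CPM at 0.5 mGy/h and 211, 669 and 718 CPM in replicates 1, 2 and 3 at 5 mGy/h. In batch 2 they were at 179 CPM in control replicate 6, at 753 to 903 CPM in the other controls and at 683 to 888 CPM at 0.05 mGy/h. The sum over both gad1 IDs, gad2 and slc32a1 stayed between 1817 and 2555 CPM in all 21 libraries. Its smallest part, gad1 (ENSDARG00000093411), ran from 0.191 to 24.6 CPM, which this sum does not show. The summed level of the 5 dlx IDs was 125.6 to 157 CPM in batch 2 outside control replicate 6, which held 295 CPM, and 146 to 194 CPM in batch 1, the highest of these in 5 mGy/h replicate 1. These sums are descriptions and were not tested.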
